A study of Drosophila melanogaster with 4 samples.

Results

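R7 photoreceptor cells that held substantial counts of both *Rhodopsin 3* (*Rh3*) and *Rhodopsin 4* (*Rh4*) were chosen by their measured rhodopsin counts from single-cell RNA profiles of adult eyes of *Drosophila melanogaster*, and 183 such cells were found among 34606 cells kept from 40076 cell barcodes. A cell was kept with more than 200 detected genes and less than 20% of its unique molecular identifiers (UMIs, each marking a captured RNA molecule) from mitochondrial genes. It was counted as an *Rh3*+*Rh4* cell when it held at least 10 UMIs of each gene, when neither fell under 15% of the summed counts of *Rh3*, *Rh4*, *Rh5* and *Rh6*, and when *ninaE*, the rhodopsin of the outer photoreceptors R1-6, and *Pdh*, a pigment cell gene, took less than 5% and 2% of all its UMIs. Cells under the same limits on *ninaE* and *Pdh*, with at least 20 UMIs of the 4 inner rhodopsins and at least 90% of them from *Rh3* (1046 *Rh3*-only cells) or from *Rh4* (696 *Rh4*-only cells), served for comparison. The levels of these 6 genes therefore chose the cells, and they are given below as a description without a test.

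The eyes were those of the wild-type strain Canton-S, untreated and raised alike, and each of the 4 libraries pooled the cells of 40 dissected eyes, freed with collagenase in the presence of the transcription inhibitor Actinomycin D. There was 1 library each of males aged 1, 3 and 7 days and of females aged 1 day, so no age or sex was replicated and differences between ages or between the sexes cannot be told apart from differences between libraries. Values for the 4 libraries are given in the order of males by age (1, 3, then 7 days), with the female library last. The libraries held 16275, 8701, 6335 and 8765 barcodes at a median of 3161, 3168, 1872 and 4465 UMIs. Of every pair of libraries 12 to 37 barcodes were the same, and no barcode was an *Rh3*+*Rh4* cell in more than 1 library.

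Each unit eye, or ommatidium, of the fly has R7 and R8 as its inner photoreceptors. In pale ommatidia R7 makes the ultraviolet opsin Rh3, and in yellow ommatidia the transcription factor Spineless (*ss*) turns on *Rh4* in R7 and, through the repressor Defective proventriculus (*dve*), shuts *Rh3* off. Yellow R7 cells of the dorsal eye are the known exception: there the homeodomain proteins of the Iroquois complex, *araucan* (*ara*), *caupolican* (*caup*) and *mirror* (*mirr*), allow *Rh3* beside *Rh4*. At the dorsal rim, where polarized light is sensed, *homothorax* (*hth*) gives both R7 and R8 *Rh3* alone. Where in the eye each cell had stood was not recorded.

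The label of R7 was checked against markers that the choice of cells did not use. *prospero* (*pros*), the homeodomain factor of R7, had a UMI in 58 of 65, 16 of 21, 28 of 34 and 56 of 63 *Rh3*+*Rh4* cells, which is 89.2%, 76.2%, 82.4% and 88.9%. In *Rh6*-only R8 cells, which should lack it, the share was 1.05 to 3.31%. *senseless* (*sens*), which specifies R8, had no UMI in any *Rh3*+*Rh4* cell, and *CG2082*, the other R8 marker, stood at 0 to 77.8 UMIs per 1000000 of all UMIs in the 4 libraries, against 267 to 679 for both markers in *Rh6*-only cells. The 3 markers shared by photoreceptors, *oc*, *chp* and *trp*, were all detected, with a summed level of 1238 to 2768 on the same scale, against 1347 to 3161 in *Rh3*-only cells. Among markers of other cells, 4 of 5 for pigment cells were detected at a sum of 38.2 to 239 on that scale, compared with 4521 to 16325 in pigment cells, while *wrapper* was at 0. For cone cells 1 of 3 was detected (at most 46.7, *Crys* and *CG5597* at 0), for glia 2 of 3 (at most 13.0, *alrm* at 0), for neurons outside the retina 3 of 4 (10.96 to 283, against 83.7 to 288 in *Rh3*-only and 3.12 to 109 in *Rh4*-only cells, *Gad1* at 0) and for hemocytes 0 of 3.

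*Rh3*+*Rh4* cells numbered 65, 21, 34 and 63. They made up 10.998% (95% exact binomial interval 8.59 to 13.8%), 5.34% (3.34 to 8.05%), 6.48% (4.53 to 8.93%) and 15.1% (11.8 to 19.0%) of all cells in the 3 groups. Of the *Rh3*+*Rh4* and *Rh4*-only cells together, they were 22.6% (17.9 to 27.8%), 11.3% (7.13 to 16.7%), 13.99% (9.89 to 19.0%) and 38.9% (31.3 to 46.9%). The female library was highest on both measures, and the 3-day and 7-day male libraries were lowest with overlapping intervals. All such intervals cover counting error only. The *Rh3*-only group may include R8 cells of the dorsal rim, which also carry *Rh3* alone. Both R8 markers were detected in it, and *hth* had a UMI in 9.22 to 16.9% of its cells. Without the female library the share over all cells was 7.95% in place of 9.51%.

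*Rh3* (FBgn0003249, dm6 chromosome 3R, 20081060 to 20082450) and *Rh4* (FBgn0003250, chromosome 3L, 16852527 to 16862517) encode the ultraviolet opsins of R7. The median *Rh3*+*Rh4* cell held 224, 170, 157.5 and 958 UMIs of *Rh3* and 394, 240, 185 and 991 UMIs of *Rh4*. As shares of all UMIs, *Rh3* stood at 4.75%, 5.29%, 5.79% and 8.24%, which is 0.298, 0.332, 0.343 and 0.393 of its share in *Rh3*-only cells. *Rh4* stood at 6.95%, 6.01%, 7.97% and 9.57%, or 0.457, 0.466, 0.543 and 0.453 of its share in *Rh4*-only cells. Each opsin was below its level in single-opsin cells in every library, which the limits on its share of the 4 inner rhodopsins favoured. Both together took 11.7%, 11.3%, 13.8% and 17.8% of the UMIs. In *Rh3*-only cells both together took 15.9%, 15.9%, 16.9% and 20.9%, and in *Rh4*-only cells 15.3%, 12.9%, 14.7% and 21.2%. Among cells that should lack both opsins, 95% of *Rh6*-only cells held at most 3.45 UMIs of *Rh3* and at most 2 of *Rh4* in each library, with medians of 0.

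**Figure D1:**
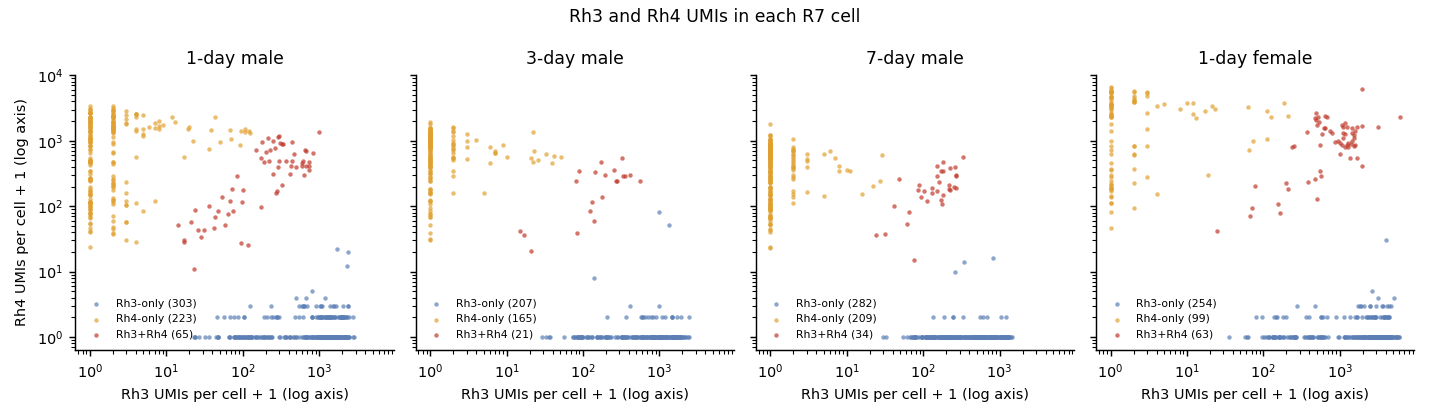
UMIs of *Rh3* (x axis) and *Rh4* (y axis) in each cell, both with 1 added and on log axes, 1 panel per library. Each point is a cell, red for *Rh3*+*Rh4* cells (65, 21, 34 and 63), blue for *Rh3*-only and yellow for *Rh4*-only cells. *Rh4*-only cells trail towards the red cells along the *Rh3* axis, whereas few *Rh3*-only cells hold more than a handful of *Rh4* UMIs.

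The balance of the opsins ranged widely between cells. *Rh3* made up a median of 42.0%, 52.8%, 42.6% and 49.6% of the *Rh3* and *Rh4* UMIs, and *Rh4* was the more abundant in 45 of 65, 9 of 21, 24 of 34 and 32 of 63 cells. Just inside the limit on balance, 14 cells had their scarcer opsin at 15 to under 20% of the 4 inner rhodopsins, with a median of 240 UMIs of it. Just outside, 20 cells had it at 10 to under 15%, with a median of 112 UMIs. The minimum of 10 UMIs decided little: 4 cells held 10 to 14 UMIs of the scarcer opsin and 5 cells outside the limit held 5 to 9.

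A droplet that traps more than 1 cell can mimic a cell with both opsins, so depth was compared. The median *Rh3*+*Rh4* cell held 5267, 4123, 2610.5 and 12185 UMIs, against 6826, 5033, 3059.5 and 11550 in *Rh3*-only cells and 7787, 6066, 3285 and 13112 in *Rh4*-only cells. These medians came to 0.360, 0.371, 0.411 and 0.494 of the sum of the medians of both single-opsin groups. *Rh3*+*Rh4* cells over 2 times the median of the single-opsin cells numbered 2, 0, 0 and 4, which is 3.08%, 0%, 0% and 6.35%, compared with 8.17%, 5.65%, 4.48% and 3.97% of single-opsin cells. Genes detected per cell were 0.869 to 1.03 times those of *Rh3*-only cells at the median. Scrublet, which scores cells against simulated doublets, placed 7 of 65, 1 of 21, 0 of 34 and 3 of 63 *Rh3*+*Rh4* cells among its highest scores (10.8%, 4.76%, 0% and 4.76%). The same was true of 6.27%, 8.21%, 1.77% and 4.72% of *Rh3*-only and 4.93%, 3.64%, 0.957% and 3.03% of *Rh4*-only cells.

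**Figure D2:**
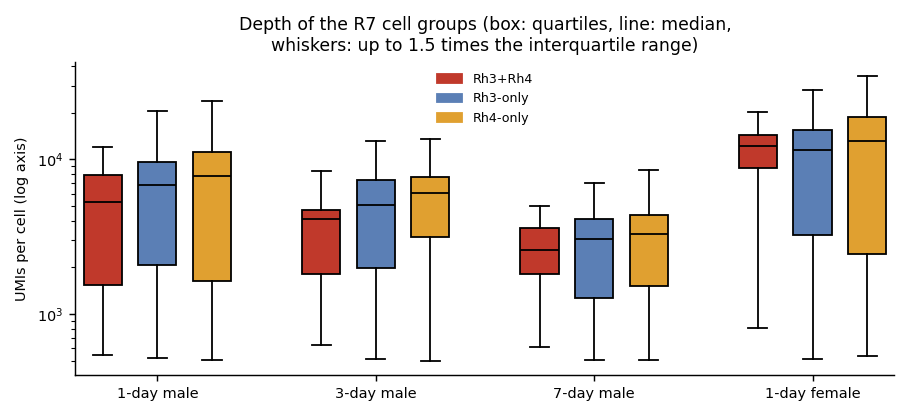
UMIs per cell on a log axis for *Rh3*+*Rh4* (red), *Rh3*-only (blue) and *Rh4*-only (yellow) cells of each library. Boxes give the quartiles, lines the medians and whiskers reach up to 1.5 times the interquartile range. Medians of the red boxes lie below both others in the male libraries and between them in the female library.

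The same limits were applied to the other pairs of inner rhodopsins. *Rh3* with *Rh4* gave 183 cells, or 26.3 for every 100 cells of the smaller single-opsin group. *Rh3* with *Rh6* gave 13 cells (1.34 per 100), *Rh4* with *Rh6* 14 (2.01 per 100), *Rh5* with *Rh6* 3, and *Rh5* with *Rh3* or with *Rh4* 0. In single libraries the *Rh3* and *Rh4* pair stood at 29.1, 12.7, 16.3 and 63.6 per 100, and no other pair exceeded 4.08 per 100.

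Genes outside the 6 used to choose the cells were then compared by summing the counts of each group in each library and fitting edgeR's quasi-likelihood test across 4955 genes, with the library as a block. Its p-values measure how the differences between groups vary over 4 libraries that differ in age and sex. Differences between the libraries themselves are taken up by the block. Both comparisons share the *Rh3*+*Rh4* sums. A gene passed when its Benjamini-Hochberg adjusted p was below 0.05 and its change exceeded 1 on the log2 scale, in either direction. From here on, levels are in CPM, the UMIs of a gene scaled to a total of 1000000 UMIs outside those 6 genes. Against *Rh3*-only cells 38 genes passed (0.767% of those tested), 17 higher (0.343%) and 21 lower (0.424%). Against *Rh4*-only cells 26 passed (0.525%), 20 higher (0.404%) and 6 lower (0.121%). Between the single-opsin groups themselves 71 genes passed (1.43%), 19 higher and 52 lower in *Rh4*-only cells. Without the library block 11, 3 and 29 genes passed, and without the 1-day males 25, 8 (4 higher and 4 lower) and 44. With DESeq2 6 genes passed against *Rh4*-only cells, 4 higher and 2 lower. DESeq2 gave no adjusted p for 16 of the named genes in this comparison, and a gene without one was counted as not passing.

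Of the Iroquois genes 2 of 3 passed in each comparison, both higher, with a median log2 fold change of 2.05 against *Rh3*-only and 3.24 against *Rh4*-only cells, beside -0.04 and -0.04 over all genes tested. For this list and those below, the shares over all genes tested are 0.767% against *Rh3*-only and 0.525% against *Rh4*-only cells. *ara* and *caup*, paralogs whose reads could be split between them, lie next to each other on chromosome 3L (FBgn0015904, 12580672 to 12596018, and FBgn0015919, 12609631 to 12621798), with *mirr* (FBgn0014343) at 12693639 to 12710249.

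*ara* stood at 27.0, 14.5, 38.8 and 39.9 CPM in *Rh3*+*Rh4* cells, from 9, 1, 3 and 25 UMIs. In *Rh3*-only cells it was at 11.4, 3.38, 4.36 and 4.71, and in *Rh4*-only cells at 4.37, 0, 1.81 and 4.32. The *Rh3*+*Rh4* level was the highest of the 3 groups in every library, and the ranges did not overlap. The log2 fold change was 2.21 (SE 0.48, adjusted p = 0.0363) against *Rh3*-only and 3.24 (SE 0.56, adjusted p = 0.00733) against *Rh4*-only cells. The first call did not survive the removal of any library: adjusted p was 0.0991 without the 1-day males, 0.0549 without the 3-day males, 0.154 without the 7-day males and 0.434 without the females. The second was lost without the 1-day males (adjusted p = 0.0839) or the females (0.0771), and without the library block (0.0540).

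*caup* stood at 63.0, 43.6, 25.8 and 30.3 CPM in *Rh3*+*Rh4* cells, from 21, 3, 2 and 19 UMIs. In *Rh3*-only cells it was at 8.996, 15.8, 2.91 and 10.4, and in *Rh4*-only cells at 2.19, 1.21, 5.42 and 1.08. Again the *Rh3*+*Rh4* cells were highest in each library, without overlap. The log2 fold change was 2.05 (SE 0.44, adjusted p = 0.0352) against *Rh3*-only and 4.10 (SE 0.57, adjusted p = 0.00211) against *Rh4*-only cells. Against *Rh3*-only cells adjusted p was 0.508 without the 1-day males, 0.0696 without the 3-day males, 0.0872 without the females and 0.0453 without the 7-day males. Against *Rh4*-only cells it was 0.113 without the 1-day males and stayed under 0.05 without any other library.

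*mirr* stood at 51.0, 58.2, 64.6 and 31.9 CPM, from 17, 4, 5 and 20 UMIs, against 25.8, 14.6, 14.5 and 16.0 in *Rh3*-only and 13.1, 12.1, 28.9 and 17.3 in *Rh4*-only cells. It was higher in all 4 libraries in both comparisons, by a log2 fold change of 1.22 (SE 0.33) and 1.29 (SE 0.35), but did not pass (adjusted p = 0.105 and 0.0719, edgeR's quasi-likelihood test). With DESeq2 it passed against *Rh3*-only cells (adjusted p = 0.0459) and had no adjusted p against *Rh4*-only cells. When each cell was thinned to 2000 UMIs, the log2 fold change was 0.32 (adjusted p = 0.945) against *Rh3*-only cells and turned to -0.11 (adjusted p = 0.990) against *Rh4*-only cells. Thinning left few UMIs of *mirr*: in a separate draw at that depth it was found in 2.27 to 8% of *Rh3*+*Rh4* cells. Whether depth had a part in the difference was not tested. The fitted differences of *ara*, *caup* and *mirr* rest on 38, 45 and 46 UMIs over the 183 cells, and no cell held more than 3 UMIs of any of them.

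**Figure D3:**
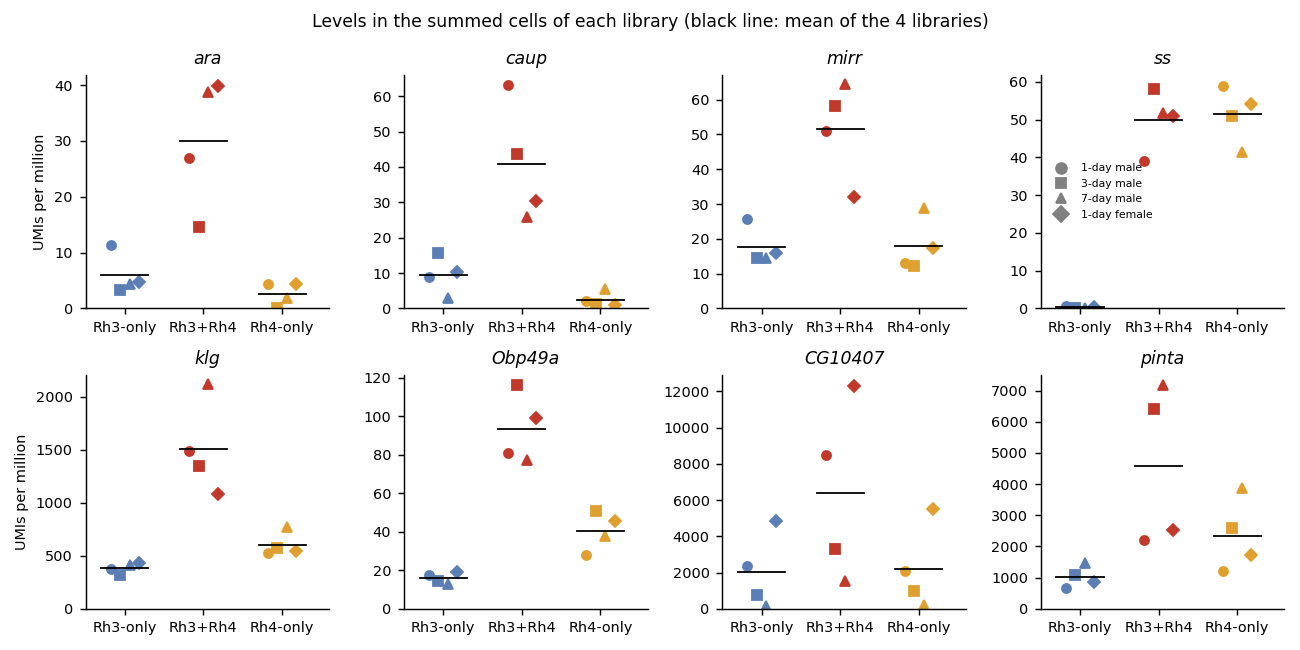
Levels of 8 genes in UMIs scaled to 1000000 (linear axes from 0) in the summed *Rh3*-only (blue), *Rh3*+*Rh4* (red) and *Rh4*-only (yellow) cells of each library. Points are libraries (circle 1-day male, square 3-day male, triangle 7-day male, diamond 1-day female) and lines are their means. *ara*, *caup* and *klg* are highest in the middle group in all 4 libraries, while *ss* overlaps between the middle and right groups and is near 0 on the left.

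As a share of cells, at least 1 Iroquois UMI was found in 47.7% (31 of 65, interval 35.1 to 60.5%), 33.3% (7 of 21), 23.5% (8 of 34) and 58.7% (37 of 63) of *Rh3*+*Rh4* cells. The shares were 15.8%, 10.6%, 4.26% and 16.1% in *Rh3*-only and 7.62%, 6.06%, 8.61% and 11.1% in *Rh4*-only cells. R1-6 cells gave 11.9%, 5.71%, 3.71% and 9.86% at median depths of 7082, 3798, 1859 and 7681 UMIs, below the *Rh3*+*Rh4* shares in each library. The *Rh3*-only shares were above those of R1-6 cells in each library, as were the *Rh4*-only shares in all but the 1-day males. *Rh6*-only cells gave 13.6%, 9.44%, 4.33% and 21.5%. When each cell was thinned to 2000 UMIs and shallower cells were left out (21, 8, 9 and 6 *Rh3*+*Rh4* cells), the shares were 20.5% (9 of 44, interval 9.80 to 35.3%), 7.69% (1 of 13, 0.195 to 36.0%), 20% (5 of 25, 6.83 to 40.7%) and 8.77% (5 of 57, 2.91 to 19.3%). At that depth they were 7.42%, 4.52%, 4.32% and 3.02% in *Rh3*-only cells, 2.14 to 4.20% in *Rh4*-only and 2.20 to 3.08% in R1-6 cells. *Rh6*-only cells gave 3.03%, 5.37%, 4.52% and 8.92%. In the 1-day and 7-day males the interval of the *Rh3*+*Rh4* share lay above the shares of these groups. In the 3-day males it included the shares of all of them. In the females the *Rh3*+*Rh4* share was below that of *Rh6*-only cells, and its interval also included the *Rh3*-only and *Rh4*-only shares. At 1000 UMIs the *Rh3*+*Rh4* shares were 12.96%, 16.7%, 6.25% and 10.2%.

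*ss* (FBgn0003513, chromosome 3R, 16374434 to 16403690) had 13, 4, 4 and 32 UMIs in *Rh3*+*Rh4* cells, a level of 39.0, 58.2, 51.7 and 51.1 CPM. In *Rh4*-only cells it was at 59.0, 50.9, 41.6 and 54.0, and the ranges overlapped. *Rh3*-only cells held 1, 0, 0 and 1 UMIs. The pooled level was 129 times (counting interval 33.9 to 1090) that of *Rh3*-only cells, and this difference passed (adjusted p = 8.4e-07) in every alternative tried. Against *Rh4*-only cells the log2 fold change was -0.28 (SE 0.23, adjusted p = 0.684), higher in 2 libraries and lower in 2.

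*ss* and Iroquois UMIs were also found in the same cells. Both occurred in 26 of 183 *Rh3*+*Rh4* cells (14.2%), 18 of 696 *Rh4*-only cells (2.59%) and 1 of 1046 *Rh3*-only cells (0.0956%). Of the 83 *Rh3*+*Rh4* cells with an Iroquois UMI, 31.3% also had one of *ss*, and of the 100 without, 17% did. By library these shares were 22.6% and 8.82% in the 1-day males, 0% and 21.4% in the 3-day males, 12.5% and 11.5% in the 7-day males, and 48.6% and 30.8% in the females. The females held 18 of the 26 cells with both, and without that library both occurred in 8 of 120 cells (6.67%). Whether depth, which raises the chance of finding either gene, had a part in this was not tested.

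The levels were followed along the share of *Rh3* in the *Rh3* and *Rh4* UMIs of each cell, which chose the groups, whereas the Iroquois genes and *ss* did not. The 629 cells with under 1% *Rh3* held 15.02 CPM of the Iroquois genes together (11.8, 9.09, 34.1 and 13.0 in the libraries). The 46 cells at 1 to under 5% held 77.6 (62.8, 100, 96.2 and 90.8), from 18 UMIs, above the former group in each library, although only the 1-day males had 20 or more such cells (24, 9, 8 and 5). Of these UMIs 13 were of *mirr*, 3 of *ara* and 2 of *caup*, and all 8 in the 1-day males were of *mirr*. The 24 cells of the 1-day males also held 36 UMIs of *hth* (283 CPM, against 4.22 at under 1% *Rh3*). The 39 cells at 5 to under 15% held 79.2 (68.5, 44.6, 0 and 108), also from 18 UMIs. At 15 to under 50% the level was 109 in 110 cells (106, 126, 125 and 106) and at 50 to under 85% it was 124 in 70 cells (236, 110, 69.8 and 98.2). At 85 to under 99% there were 18 cells in all, and the 1031 cells at 99% or more held 35.3 (46.8, 34.2, 22.0 and 31.1). *ss* was at 54.4, 47.4, 30.8, 46.7 and 49.3 CPM from the lowest *Rh3* share up to 85%, and at 0.376 in the cells at 99% or more.

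**Figure D4:**
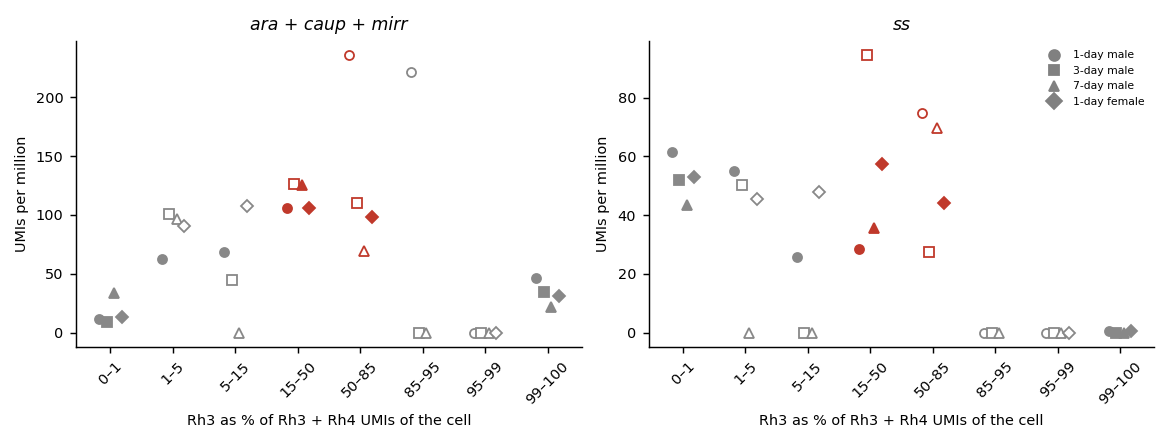
Summed *ara*, *caup* and *mirr* (left) and *ss* (right) in CPM against the share of *Rh3* in the *Rh3* and *Rh4* UMIs of a cell, in bins. Each point is a library (shapes as in the plot of levels), red for the bins of *Rh3*+*Rh4* cells and grey for the others, open where the library has under 20 cells in the bin. Iroquois levels at 1 to 5% *Rh3* are 62.8 to 100 CPM, above the 9.09 to 34.1 at under 1%, and *ss* is at 0.608 or less in each library at 99% or more. At 1 to 5% *Rh3*, 13 of the 18 Iroquois UMIs are of *mirr*.

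Among the other factors of R7 and its subtypes, 8 of 10 were tested. Against *Rh3*-only cells 1 was higher (*ss*) and 0 were lower, with a median log2 fold change of 0.08. Against *Rh4*-only cells 0 passed by edgeR, 0 by DESeq2 and 1 had an unadjusted p under 0.05, with a median of 0.14. DESeq2 gave no adjusted p for *ss* or *dve* in that comparison. *pros* (FBgn0004595) was at 819, 465, 788 and 568 CPM, against 711, 549, 614 and 469 in *Rh3*-only and 648, 476, 598 and 485 in *Rh4*-only cells. The ranges overlapped (log2 fold change 0.12 and 0.13, adjusted p = 0.867 and 0.649). *dve* (FBgn0020307) had 12 UMIs in all, at 27.0, 0, 0 and 4.79 CPM, against 7.20, 1.13, 0 and 2.35 in *Rh3*-only and 30.6, 10.9, 3.61 and 17.3 in *Rh4*-only cells. It was below the *Rh4*-only level in all 4 libraries, by -1.04 (SE 0.51, adjusted p = 0.384), and a difference was not detectable at this depth. Between the single-opsin groups *dve* was higher in *Rh4*-only cells (2.59, SE 0.44, adjusted p = 0.00336).

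Of the other genes listed for the dorsal eye, *pnr* and *wg* had too few UMIs to test. *fng*, whose larval or pupal expression the study gives as ventral, did not pass. Its log2 fold change was -1.94 against *Rh3*-only and -2.81 against *Rh4*-only cells, with an unadjusted p under 0.05 only in the second (edgeR's quasi-likelihood test). Of the dorsal rim genes 2 of 3 passed against *Rh3*-only cells, both lower, and 0 against *Rh4*-only cells by edgeR or DESeq2, with 0 at an unadjusted p under 0.05. *hth* (FBgn0001235) had 4 UMIs in *Rh3*+*Rh4* cells, at 9.01, 0, 0 and 1.60 CPM, and 385, 331, 308 and 269 CPM in *Rh3*-only cells. *Skeletor* (FBgn0262717), a protein first described from the spindle matrix, had 1 UMI against 393, 266, 227 and 347 CPM. Both were lower in all 4 libraries and passed (adjusted p = 2.98e-05 and 1.15e-07), pooled levels being 88.5-fold (counting interval 34.5 to 325) and 367-fold (65.8 to 14518) lower. *hth* had a UMI in 9.22 to 16.9% of *Rh3*-only cells, so that group includes cells with the dorsal rim gene. The study proposes *Skeletor* as a dorsal rim marker from differential expression in these same libraries. Cells with *Rh3* alone could enter only the *Rh3*-only group, so these 2 differences are not independent of how the cells were chosen. Where every cell with an *hth* UMI was left out, the change in *Skeletor* was -4.11 in place of -8.37 on the log2 scale, and its adjusted p was 0.0376. *CG14688*, which lies close to *Skeletor* on chromosome 3R (10677737 to 10680925), had no UMI, against 107 in *Rh3*-only cells, at least 7.35-fold lower by a floor of 3 UMIs over the group. Its adjusted p was 0.0417, and the call was lost without the 1-day males (0.108) or the 3-day males (0.0660), while without either of the other libraries it had too few UMIs to test.

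R8 genes gave 1 call among 3 tested against *Rh3*-only cells. *melted* (*melt*, FBgn0023001), which promotes *Rh5* in pale R8, had 4 UMIs, at 0, 0, 12.9 and 4.79 CPM, against 89.96, 60.8, 34.9 and 53.7 in *Rh3*-only cells and 0 in *Rh4*-only cells. It was lower than in *Rh3*-only cells in each library (-4.10, SE 0.53, adjusted p = 0.00198).

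*klingon* (*klg*, FBgn0017590, chromosome 3R, 22899284 to 22961731), encodes an immunoglobulin-domain adhesion protein needed for R7 development, and it differed from both single-opsin groups. It overlaps *CG6660* and a noncoding RNA on its own strand. *klg* was at 1489, 1352, 2118 and 1086 CPM in *Rh3*+*Rh4* cells (mean 1511 ± 438, SD, n = 4 libraries), at 371, 315, 416 and 437 in *Rh3*-only and at 524, 578, 768 and 547 in *Rh4*-only cells. No library of either group reached the lowest *Rh3*+*Rh4* library. It was higher by 1.84 (SE 0.13, adjusted p = 8.4e-07) and 1.14 (SE 0.12, adjusted p = 0.000352), and the second call was lost only without the library block (0.0769). After thinning to 2000 UMIs *klg* was found in 75.4 to 96.0% of *Rh3*+*Rh4* cells, in 32.9 to 37.2% of *Rh3*-only and in 40.8 to 53.8% of *Rh4*-only cells. *Rh6*-only R8 cells held 1377, 1655, 1923 and 1239 CPM, and R1-6 cells at most 9.27.

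*CG10407* (FBgn0038395, chromosome 3R, 16044747 to 16046130, overlapping *Jhbp4* on the other strand) varied widely between libraries. It was at 8492, 3315, 1550 and 12300 CPM in *Rh3*+*Rh4* cells, at 2355, 786, 160 and 4837 in *Rh3*-only and at 2096, 995, 213 and 5508 in *Rh4*-only cells. Groups overlap across libraries because all 3 were highest in the 1-day libraries, but within each library *Rh3*+*Rh4* cells were highest. The log2 fold change was 1.95 (SE 0.20, adjusted p = 5.87e-05) and 1.71 (SE 0.20, adjusted p = 0.000471), and without the library block both calls were lost (adjusted p = 0.99984 and 0.999). The 10882 UMIs came from 108 of 183 cells, and the cell with the most held 5.06% of them.

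*Obp49a* (FBgn0050052), of the odorant-binding protein family, was at 81.0, 116, 77.5 and 98.97 CPM, against 17.4, 14.6, 13.1 and 18.8 in *Rh3*-only and 27.7, 50.9, 37.9 and 45.4 in *Rh4*-only cells. The *Rh3*+*Rh4* libraries were above all others, by 2.41 (SE 0.22, adjusted p = 2.98e-05) and 1.09 (SE 0.21, adjusted p = 0.0147). The second call was lost without the 1-day males (adjusted p = 0.149) or the females (0.0787), after thinning to 2000 UMIs (0.399), without the library block (0.538), and with each opsin at 30% or more, where the change was 0.99. *CG34353* (FBgn0085382), which overlaps *CG12426* on its own strand, was the gene lower than in both groups, with 3 UMIs, all in the female library. It was at 73.8, 34.9, 39.3 and 17.9 in *Rh3*-only and 59.0, 19.4, 25.3 and 5.40 in *Rh4*-only cells. The pooled level was 15.04-fold (5.08 to 73.5) and 11.6-fold (3.88 to 57.2) lower (adjusted p = 0.00642 and 0.0311). Against *Rh3*-only cells the call was lost without the 1-day males (0.202), the 7-day males (0.0549) or the library block (0.217). Against *Rh4*-only cells it was lost without the 1-day (0.550), 3-day (0.0816) or 7-day males (0.0988) and without the library block (0.772). That second call was also lost after thinning to 2000 UMIs (0.126) and without cells marked by scrublet (0.0508).

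*CG7888* also passed against both groups, by 3.08 (SE 0.61, adjusted p = 0.0193) and 6.31 (SE 0.83, adjusted p = 0.00141), but 180 of its 185 UMIs came from a single 1-day male cell of 44587 UMIs and 4483 genes. That cell also held 30 of the 33 UMIs of *PLCXD*, a gene with a phospholipase C domain, which passed against *Rh4*-only cells (4.98, SE 0.99, adjusted p = 0.0153) and not without the 7-day males (0.0566). The upper limit on genes per cell in the methods of the study, 3500 in that library, leaves this cell out, and *CG7888* then no longer passed (adjusted p = 0.881 and 0.711). Its calls were lost without the 1-day males (0.997 and 0.679), and that against *Rh3*-only cells without the 7-day males (0.0636). Of the 20 genes higher than in *Rh4*-only cells, 8 had over 50% of their *Rh3*+*Rh4* UMIs in 1 cell, and 11 passed under the limits of the study. Of the 17 higher than in *Rh3*-only cells, 1 had over 50% in 1 cell and 15 passed under those limits.

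Other named genes passed against *Rh3*-only cells and did not pass against *Rh4*-only cells. The difference between these contrasts is that between the single-opsin groups, which passed for both genes described here (adjusted p = 2.26e-07 for *Alg3* and 1.24e-07 for *dpr9*). *Alg3* (FBgn0011297), a mannosyltransferase of glycan assembly, was at 111, 131, 207 and 367 CPM, against 15.6, 20.3, 30.6 and 43.8 in *Rh3*-only and 111, 114, 105 and 344 in *Rh4*-only cells. It was higher than in *Rh3*-only cells by 2.83 (SE 0.19, adjusted p = 8.4e-07), and the difference from *Rh4*-only cells was 0.13 (SE 0.17, adjusted p = 0.883). *dpr9* (FBgn0038282), of the Dpr family of immunoglobulin-domain synaptic proteins, was at 36.0, 29.1, 25.8 and 31.9 CPM, against 148, 192, 303 and 114 in *Rh3*-only and 12.4, 24.2, 19.9 and 15.1 in *Rh4*-only cells. It was lower than in *Rh3*-only cells by -2.24 (SE 0.23, adjusted p = 7.18e-05) and did not pass against *Rh4*-only cells (1.02, SE 0.31, adjusted p = 0.112).

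Chromophore genes gave 1 call among 4 tested against *Rh3*-only cells, where 0.767% of all genes tested passed. The call was *pinta* (FBgn0038966, chromosome 3R, 22423316 to 22424929), which encodes a retinol-binding protein of the visual pigment pathway. It was at 2209, 6427, 7182 and 2522 CPM, against 653, 1081, 1462 and 844 in *Rh3*-only and 1216, 2592, 3879 and 1713 in *Rh4*-only cells. Within every library the order was *Rh3*-only, *Rh4*-only, *Rh3*+*Rh4*. The log2 fold change was 1.96 (SE 0.11, adjusted p = 1.55e-07) against *Rh3*-only cells, a call lost only without the library block (0.0759). Against *Rh4*-only cells it was 0.75 (SE 0.11, adjusted p = 0.00218), past the limit on p but not on size. *Rh6*-only cells held 4356, 8724, 9730 and 4012 CPM.

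Beside *CG34353*, the genes lower than in *Rh4*-only cells included *Cpr97Eb*, *Osi2*, *gb* and *SmydA-8*. The remaining one, *CG6805*, lies outside the rule for named genes and was added after its values were seen. It was at 228, 189, 219.6 and 289 CPM against 414, 427, 437 and 492 (-1.06, SE 0.12, adjusted p = 0.000539), and did not pass under the limits of the study. *Cpr97Eb*, of a cuticle protein family, had 4 UMIs, at 0, 14.5, 0 and 4.79 CPM, against 98.3, 107, 21.7 and 104 in *Rh4*-only cells and 5.40, 5.63, 4.36 and 1.88 in *Rh3*-only cells (-4.69, SE 0.53, adjusted p = 0.000466). *SmydA-8*, of a family with SET and MYND domains, was at 444, 189, 142 and 417 against 722, 669, 468 and 722 (-1.15, SE 0.17, adjusted p = 0.00228). Its level was 1802 to 2221 CPM in R1-6 cells. *gb*, a glutamate exchanger known from glia, was at 51.0, 14.5, 0 and 59.1 against 150, 122, 57.8 and 100, and differed by -1.43 (SE 0.26, adjusted p = 0.00919), a call lost without the 1-day males (0.178). *Osi2*, of the Osiris family, was at 36.0, 0, 0 and 20.8 against 94.7, 42.4, 12.6 and 43.2, and differed by -1.50 (SE 0.30, adjusted p = 0.0152). That call was lost without the 1-day males (0.260) or the females (0.0549), with *ninaE* under 2% (0.174) and after thinning to 2000 UMIs (0.205). Without the library block the calls of *Osi2* (0.999), *gb* (0.723) and *SmydA-8* (0.538) were lost. R1-6 cells held 152 to 419 CPM of *Osi2* and 74.5 to 120 of *gb*. *Cpr97Eb*, *SmydA-8*, *gb* and *Osi2* were each lower than in *Rh4*-only cells in all 4 libraries, which the rule for naming them required. *CG11030*, with 21 UMIs, was higher by 2.01 (SE 0.48, adjusted p = 0.0427), and that call was lost on leaving out any library (0.0889 to 0.356).

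No gene of light detection and signalling passed both limits. Over all genes tested only 0.767% and 0.525% passed, so lists this short need not hold one. Of 24 phototransduction genes 23 were tested and 0 passed in either comparison by edgeR or by DESeq2, with log2 fold changes of -0.32 to 0.27 against *Rh3*-only and -0.88 to 0.20 against *Rh4*-only cells. Unadjusted p was under 0.05 for 7 and 10 of them, and adjusted p for 4 and 7, all with changes under the limit on size. For this and the other lists, the shares of all genes under these limits on p alone are not given. Such counts were therefore not set against a background. The medians were -0.07 and -0.19. Of 6 histamine genes, which serve the transmitter of fly photoreceptors, 6 were tested and 0 passed by either tool in either comparison (0 and 2 with unadjusted p under 0.05, medians -0.13 and 0.03). Of 7 heat shock genes 2 were tested and 0 passed by either tool (1 and 0 with unadjusted p under 0.05).

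Cell adhesion genes of the Dpr, DIP, Beat and Side families numbered 54, of which 15 were tested. Against *Rh3*-only cells 0 were higher and 1 lower (*dpr9*), with a median of -0.06. Against *Rh4*-only cells 0 passed by edgeR and 0 by DESeq2, 6 had an unadjusted p under 0.05, and the median was 0.38, compared with -0.04 for all genes. DESeq2 gave no adjusted p for *dpr9* or *dpr11* in that comparison. *dpr11* (FBgn0053202), a known surface protein of yellow R7, had 11 UMIs in 5 *Rh3*+*Rh4* cells. It was at 24.01, 0, 0 and 4.79 CPM, against 10.2, 2.25, 1.45 and 2.83 in *Rh3*-only and 18.2, 3.64, 7.23 and 3.24 in *Rh4*-only cells, and did not pass (0.95, SE 0.58, adjusted p = 0.725, and 0.05, SE 0.57, adjusted p = 1).

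**Figure D5:**
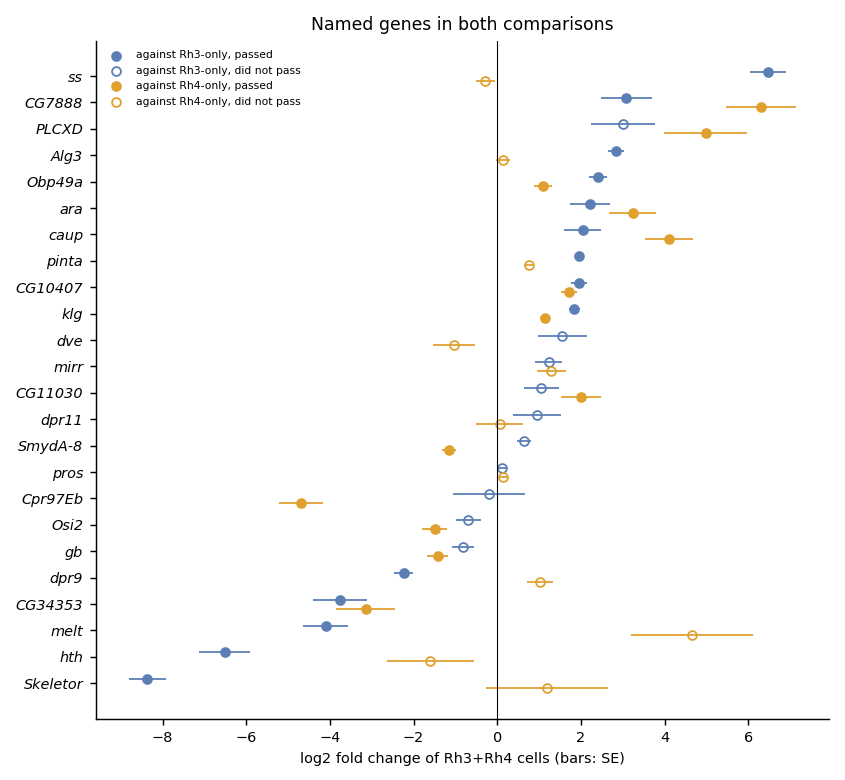
Fitted log2 fold changes of the named genes in *Rh3*+*Rh4* cells against *Rh3*-only (blue) and *Rh4*-only cells (yellow), with bars of 1 SE as derived from the F statistic of the test. Filled points passed and open points did not. *CG14688*, with no UMI in *Rh3*+*Rh4* or *Rh4*-only cells, is left out. *ara*, *caup*, *klg*, *Obp49a*, *CG10407* and *CG7888* are filled on the right in both colours.

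Likeness to the single-opsin groups outside the genes that chose the cells was described by neighbours. The 20 nearest cells of each cell were found in 20 principal components of each library without the 6 genes. Of the single-opsin neighbours of *Rh3*+*Rh4* cells, 45.7%, 58.9%, 45.3% and 38.5% were *Rh4*-only cells, against 42.4%, 44.4%, 42.6% and 28.0% of the single-opsin cells present. For *Rh3*-only cells the shares were 39.2%, 46.1%, 43.2% and 30.8%, and for *Rh4*-only cells 50.6%, 57.1%, 51.8% and 42.8%. The *Rh3*+*Rh4* cells lay between both in 3 libraries and above both among the 21 cells of the 3-day males. With 50 components or 50 neighbours they lay between both in the 3-day males as well (60.7% between 49.6% and 64.5%, and 54.2% between 47.7% and 55.1%). Other *Rh3*+*Rh4* cells made up 9.31%, 6.19%, 6.91% and 16.9% of their neighbours, close to their shares of the cells, 10.8%, 5.10%, 6.30% and 14.9%.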

How the data were processed

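Single-cell suspensions of dissected eyes were sequenced with the 10x Genomics 3' kit (v3.1). Per the labels, the authors made the counts with Cell Ranger 6.0.1 on dm6, and the deposited values are whole-number UMI counts per gene and barcode, without normalization or correction for free RNA. Of the IDs, 13918 of 13964 were found in the Ensembl release 115 annotation of BDGP6 (dm6 coordinates), from which positions were taken. The cells and gene lists were chosen with earlier results of these data known. *bss* and *CdsA*, 2 of the listed symbols, were not found in the files.

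Counts were summed per library and group (12 sums of 68774 to 2123534 UMIs without the 6 genes used to choose cells) and tested in edgeR 4.0.16 (TMM factors, filterByExpr, glmQLFit, library as a block because the 3 groups come from the same libraries) under R 4.3.3. The test was tried on simulated data first. Each SE is the absolute log2 fold change divided by the square root of the F statistic of the test, and was not fitted directly. Alternatives used DESeq2 1.42.0, other limits on cells, thinning, scrublet in scanpy 1.11.5 (the cells with the highest scores marked, at 0.8% per 1000 kept cells, since its automatic threshold marked 1036, 0, 2 and 2 cells), free RNA at 5% and each library left out. No cell was removed as a doublet in the main results. Neighbours used log-normalised counts (10000 per cell, 2000 variable genes). Intervals are exact (Clopper-Pearson or conditional binomial) at 95%. Python 3.11.15 with numpy 2.4.6, scipy 1.17.1 and pandas 2.3.3 did the rest.

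The genes named are those of the lists that passed, *ara*, *caup*, *mirr*, *ss*, *dve*, *pros*, *hth* and *dpr11* whatever their values, the 5 largest changes each way among genes that passed in each comparison with the same sign in all 4 libraries, and up to 10 genes that passed in the same direction in both.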

Additional observations from a re-analysis of the deposited data

How the results depend on the processing

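For the comparison with *Rh3*-only cells, 38 genes passed, and 95 passed among genes with at least 1 count, 107 without cells marked by scrublet, 11 with no replicate block, and 25 to 29 with each library left out. For *Rh4*-only cells, 26 passed, and 130 among genes with at least 1 count, 63 with each opsin at 30% or more, 64 in cells with a UMI of *pros*, 17 without cells over 2 times the median depth, 6 with DESeq2 (4 of them higher, against 20 of 26), 3 with no replicate block, and 8 (without the 1-day males) to 31 with a library left out. Between the single-opsin groups, 71 passed, and 168 among genes with at least 1 count, 29 with no replicate block, and 44 to 72 with a library left out. The share of *Rh3*+*Rh4* cells, 9.51%, was 6.75% with each opsin at 30% or more, 11.3% in cells with *pros* and 7.95 to 10.6% with a library left out. The share of *Rh3*+*Rh4* cells with an Iroquois UMI went from 20% at 2000 UMIs to 6.25% at 1000 in the 7-day males, from 20.5% to 12.96% in the 1-day males and from 7.69% to 16.7% in the 3-day males. *CG7888* turned to -1.10 against *Rh3*-only cells under the limits of the study and to -1.03 without cells marked by scrublet, while it was 0.98 without cells over 2 times the median depth and 1.10 without the 1-day males. The cause of these changes was not tested. *Alg3*, *Obp49a*, *Skeletor*, *dpr9*, *hth*, *klg*, *melt* and *ss* passed against *Rh3*-only cells under each alternative that tested them. *ara* lost its call against *Rh3*-only cells in 8 alternatives and *caup* in 9, with adjusted p of 0.000478 to 0.434 and 0.00011 to 0.508, and against *Rh4*-only cells in 3 and 2 (1.68e-06 to 0.0839 and 5.07e-11 to 0.113). Both kept their sign in every alternative that gave a value. DESeq2 gave no adjusted p for either gene, and *ara* had too few UMIs to test after thinning. *mirr* passed in 5 alternatives against *Rh3*-only and 4 against *Rh4*-only cells, and fell to 0.32 and -0.11 after thinning, which left few of its UMIs. The share of cells with both *ss* and an Iroquois UMI, left out by library after seeing the data, was 6.67 to 16.8%. With 21 to 65 *Rh3*+*Rh4* cells per library, genes of a few UMIs per library limit what can be resolved.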

Other observations

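Cells with both *Rh3* and *Rh4* were also found beyond the limit on *ninaE*. Under the same limits on *Rh3*, *Rh4* and *Pdh*, 84 cells had 5 to under 10% of their UMIs from *ninaE*. Their median depth was 14219 UMIs, their scarcer opsin had a median of 211.5 UMIs, and 62 of them (73.8%) had a UMI of *pros*. Of the 183 *Rh3*+*Rh4* cells, 40 had 2 to under 5% from *ninaE*, at a median of 9953.5 UMIs, with *pros* in 77.5%.

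Cells with more *Rh4* than *Rh3* (110 of 183) held 109 CPM of the Iroquois genes together and 46.4 CPM of *ss*, and the 73 with more *Rh3* held 128 and 50.2. By library the first group held 109, 123, 125 and 106 CPM of the Iroquois genes and the second 236, 110, 140 and 98.2, so neither was higher throughout.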
